A study of Mus musculus with 15 samples.

Results

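The level of 10 genes that mark vascular endothelium was followed through RNA-seq libraries of macrophages sorted from the mouse aorta: Pecam1, Cdh5, Kdr, Tek, Vwf, Egfl7, Emcn, Cldn5, Tie1 and Esam. They were chosen by name as textbook endothelial genes, and all 10 were found among the 47729 features of the deposited count table. The libraries came from F4/80+ CD64+ cells, a gate that takes macrophages and does not ask for endothelial cells. All cells came from Apoe-/- females fed a Western (high fat) diet for 4 weeks, and cells from the aortas of 4 such animals were pooled. No library came from mice without the mutation or the diet, and animals cannot be told apart within the pool. The cells had been divided into an Olfr2+ and an Olfr2- sort, Olfr2 being an olfactory receptor, and each sort held between 100 and 200 cells. The age of the mice is not given in the sources used here.

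Endothelial cells line the inside of the aorta and the small vessels of its outer wall, and macrophages of an atherosclerotic plaque lie directly beneath that lining. Endothelial cells are held together by VE-cadherin (Cdh5) and claudin-5 (Cldn5), they read vascular growth factors through the receptor tyrosine kinases VEGFR2 (Kdr), TIE2 (Tek) and TIE1 (Tie1), and they store von Willebrand factor (Vwf) for release on injury. Several of these genes are not exclusive to endothelium: Pecam1 (CD31) is also made by monocytes, macrophages and platelets, Vwf by megakaryocytes, Esam by platelets, and Tek by a subset of monocytes. A single marker in bulk RNA therefore does not name a cell, and the genes were read as a set.

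Egfl7 hosts miR-126, the best known endothelial microRNA, and the sequence of its 3′ arm is given because both are read as endothelial markers. It was read from RefSeq (GRCm38.p6, chr2:26591402-26591423, plus strand) and is printed 5′ to 3′ with the seed, bases 2 to 8, in capitals.
mmu-miR-126a-3p: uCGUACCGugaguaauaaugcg
The mature form is 22 bases long, and the rows for Mir126a and Mir126b held 0 counts in all 15 columns. The libraries were made from size-selected cDNA of full-length transcripts, a preparation that does not capture mature microRNAs, so only the host transcript is described below.

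The 15 columns were read as 6 numbered samples, Olfr2+ samples 2, 3 and 4 and Olfr2- samples 1, 3 and 4, with letters A to D for repeats of a sample. The columns summed to between 29.9 and 95.6 M counts each (M, 1000000). There were 7 columns over 60 M, all of them Olfr2+, whereas Olfr2+ columns 3D, 4A and 4B and all 5 Olfr2- columns were below it, so above 60 M depth and sort cannot be told apart. The Olfr2 transcript itself averaged 0.0630 ± 0.0669 CPM in libraries labelled Olfr2+ and 0.704 ± 0.691 CPM in libraries labelled Olfr2- (SD, n = 3 each; CPM, counts per 1000000, scaled by TMM), a log2 fold change of -3.55 that did not pass (edgeR adjusted p = 0.104) and runs opposite to the labels. In columns below 60 M it was -1.82 (adjusted p = 0.561). The 1049 other olfactory receptor genes were also higher in Olfr2- columns, with summed levels of 1.44 to 85.4 CPM in Olfr2+ columns and 136 to 325 CPM in Olfr2- columns, so the direction is not particular to Olfr2. Every direction below compares libraries by their label. Summed macrophage markers (10 genes, among them Lyz2 and Csf1r) reached 7467 to 14692 CPM in the 7 deep Olfr2+ columns, 2432 to 3339 CPM in the 3 shallow ones and 1568 to 8649 CPM in Olfr2- columns. Lyz2 alone supplied 4740 to 10335 CPM of the deep sums and 7847 CPM of the highest Olfr2- sum, that of column 4B. Single genes differed: Fcgr1 (CD64) ran from 0.544 to 102.6 CPM in the deep columns and from 4.18 to 19.95 CPM in Olfr2-. Itgam was lower in the deep columns, at 24.7 to 131.6 CPM, than in Olfr2- columns, at 151 to 518 CPM. The 10 endothelial markers together reached 1.93 to 770.0 CPM in the deep Olfr2+ columns, 15.5 to 72.1 CPM in the shallow ones and 38.4 to 212.8 CPM in Olfr2-. Pecam1, which macrophages also make, supplied 3.3 to 98.3% of these sums, and the other 9 markers together reached 1.44 to 104 CPM in the deep Olfr2+ columns, 3.54 to 24.8 CPM in the shallow ones and 3.72 to 36.3 CPM in Olfr2-. In such bulk RNA, fewer endothelial cells and less RNA per cell cannot be told apart.

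No endothelial marker passed edgeR's test of a difference between the sorts, and Tek, the receptor TIE2, came nearest, high in 2 of 3 Olfr2+ samples. With edgeR's quasi-likelihood test and Benjamini-Hochberg adjustment over all 24362 genes tested, 0 of the 10 markers were called higher and 0 lower in Olfr2+ samples at an adjusted p under 0.05. Over all genes, 1.12% were called higher (273 genes) and 0.46% lower (112 genes), so a count of 0 in 10 is near the rate of all genes, and the test had little power for changes of the markers' size. At an unadjusted p under 0.05, 1 of the 10 markers passed, Tek, as did 7821 of all genes. DESeq2 gave an adjusted p to 7 of the 10 and called Tek higher, while it called 14% of 28772 genes higher and 9.37% lower. Log2 fold changes were above 0 for 6 markers and below 0 for 4, with a median of 0.56 against 0.24 over all genes tested. The heat map shows the markers column by column.

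**Figure D1:**
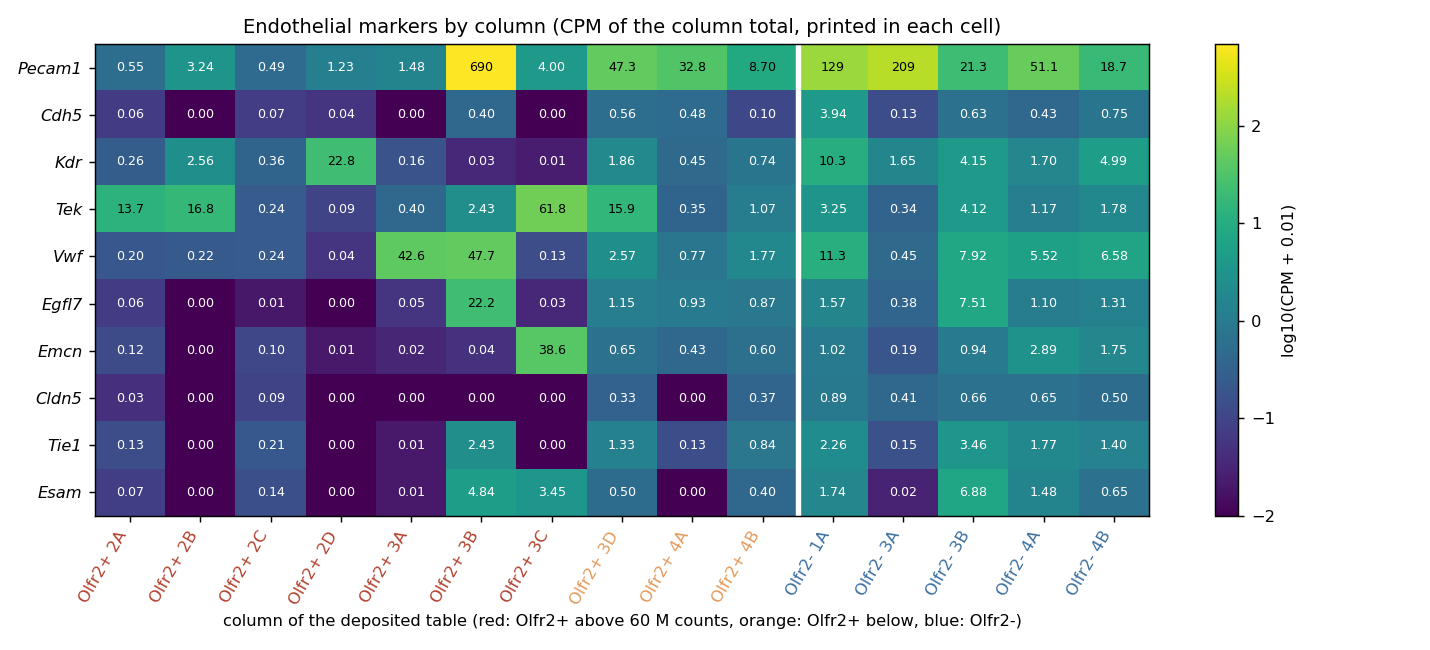
Endothelial markers (rows) in each column of the deposited table (Olfr2+ left, Olfr2- right), as CPM of the column total, with the value printed in each cell and the colour on a log10 scale. Most cells of the deep Olfr2+ columns are near 0, with isolated bright cells such as Pecam1 (690.0) in column 3B, Emcn (38.6) and Tek (61.8) in column 3C and Kdr (22.8) in column 2D.

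Among the adhesion and junction genes, Pecam1, a homophilic adhesion molecule of endothelial borders, had the highest median level per kb of exon of the set. It reached 2.91, 288 and 25.5 TMM-scaled CPM in Olfr2+ samples 2, 3 and 4, against 77.5, 104 and 24.4 CPM in Olfr2- samples 1, 3 and 4. Olfr2+ sample 3 lay above all Olfr2- samples and Olfr2+ sample 2 below all of them, so the groups overlapped (log2 fold change 0.62, SE 1.23, adjusted p = 0.718). The value of Olfr2+ sample 3 came from 1 column: 53308 of its 55341 Pecam1 counts were in column 3B. Unscaled CPM was 690.0 there, against 1.48 in column 3A, which carries the same library name, and 4.00 and 47.3 in columns 3C and 3D. Without column 3B the log2 fold change was -2.30 (adjusted p = 0.202). Over the other Olfr2+ columns Pecam1 stayed at 4.00 CPM or less in the deep ones and at 8.70 to 47.3 CPM in the shallow ones, while the Olfr2- columns held 18.7 to 209 CPM.

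Cdh5, the cadherin of endothelial adherens junctions and a gene largely restricted to endothelium, was at trace level. Counts were 15, 50 and 21 in Olfr2+ samples 2, 3 and 4, against 120, 27 and 42 in Olfr2- samples 1, 3 and 4. Scaled, these were 0.0850, 0.260 and 0.358 CPM in Olfr2+ samples and 2.37, 0.237 and 0.374 CPM in Olfr2- samples. Only Olfr2- sample 1 stood clear of the others, and the log2 fold change of -2.09 had an SE of 1.31 (adjusted p = 0.243). Column 3B, where Pecam1 was highest, held 31 Cdh5 counts (0.401 CPM).

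Cldn5, the claudin that seals endothelial tight junctions, held 146 counts over the 15 columns together. Each of Olfr2+ samples 2, 3 and 4 held 11 counts, against 27, 43 and 43 counts in Olfr2- samples 1, 3 and 4. The corresponding levels were 0.0624, 0.0572 and 0.188 CPM in Olfr2+ samples and 0.534, 0.378 and 0.383 CPM in Olfr2- samples. All Olfr2+ samples were below all Olfr2- samples, and Cldn5 was the only marker whose groups did not overlap, a pattern that 22.1% of all genes tested shared (a further 13.5% had Olfr2+ above). The log2 fold change was -2.11 (SE 1.21, adjusted p = 0.209). In Olfr2+, 6 of the 10 columns held no Cldn5 count, which allows up to 0.0314 to 0.0799 CPM in those columns (3 counts of the total, counting error only), and the 5 Olfr2- columns held 0.413 to 0.886 CPM.

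Esam, an immunoglobulin-family adhesion molecule of endothelial tight junctions, averaged 1.24 ± 1.88 CPM in Olfr2+ samples and 1.24 ± 0.62 CPM in Olfr2- samples. Its log2 fold change was 0.00 with an SE of 1.44 (adjusted p = 0.999), and the equal means hid unequal samples. The values were 0.108, 3.40 and 0.205 CPM in Olfr2+ samples 2, 3 and 4, against 1.05, 1.94 and 0.740 CPM in Olfr2- samples 1, 3 and 4. Olfr2+ sample 3 lay above and Olfr2+ samples 2 and 4 below every Olfr2- sample. Esam was concentrated in Olfr2+ columns 3B (374 counts) and 3C (262 counts) and in Olfr2- column 3B (219 counts), while Olfr2- column 3A, a repeat of the last, held 1 count.

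Among the receptor tyrosine kinases, Tek, the receptor for angiopoietins, gave the largest fold change of the set. It reached 16.0, 28.4 and 0.768 CPM in Olfr2+ samples 2, 3 and 4, against 1.96, 1.31 and 0.945 CPM in Olfr2- samples 1, 3 and 4. Olfr2+ samples 2 and 3 stood above all Olfr2- samples, and Olfr2+ sample 4 was below all of them. The log2 fold change was 3.42 (SE 1.62), with an unadjusted p of 0.0440 and an adjusted p of 0.148 in edgeR and an adjusted p of 0.0196 in DESeq2. Over the alternatives to this fit its log2 fold change ran from 1.49 to 4.00, always above 0. Unlike most other markers, Tek was high in several Olfr2+ columns: 1179 counts in 2A, 1606 in 2B, 4695 in 3C and 537 in 3D, against 18 to 131 counts in the Olfr2- columns. Columns 2C and 2D, also of Olfr2+ sample 2, held 22 and 8 counts.

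Kdr, the main signalling receptor for VEGF-A on endothelium, had 13.4, 0.416 and 0.666 CPM in Olfr2+ samples 2, 3 and 4, against 6.22, 1.94 and 2.06 CPM in Olfr2- samples 1, 3 and 4. Olfr2+ sample 2 was above every Olfr2- sample and Olfr2+ samples 3 and 4 below every one (log2 fold change 0.50, SE 1.57, adjusted p = 0.825). Column 2D alone held 2056 of the 2356 Kdr counts of Olfr2+ sample 2. Its repeat, column 2C, held 33, a 63.6-fold difference in CPM.

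Tie1, the partner receptor of TIE2, was more even in the Olfr2- samples than in the Olfr2+ samples. It had 0.170, 1.22 and 0.512 CPM in Olfr2+ samples 2, 3 and 4, against 1.36, 1.04 and 1.06 CPM in Olfr2- samples 1, 3 and 4. Olfr2+ sample 3 fell inside the Olfr2- range and the other two lay below it (log2 fold change -0.87, SE 1.28, adjusted p = 0.621). Column 3B supplied 188 of the 234 Tie1 counts of Olfr2+ sample 3, and Olfr2+ columns 2B, 2D and 3C held none. The repeats of Olfr2- sample 3 were uneven too, with 8 counts in column 3A and 110 in column 3B, a 22.99-fold difference in CPM.

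**Figure D2:**
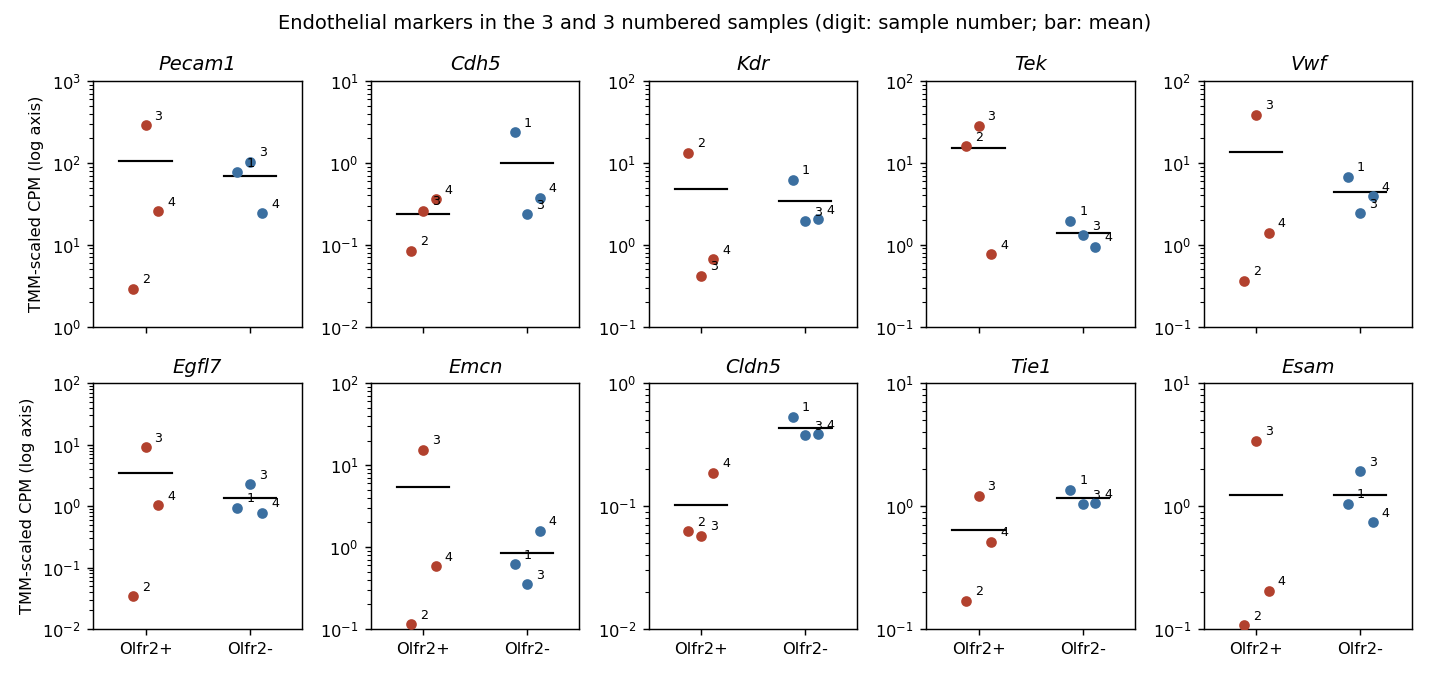
Endothelial markers in the numbered samples (Olfr2+ left, Olfr2- right in each panel) as TMM-scaled CPM on a log axis, with the sample number beside each point and a bar at the mean of 3 samples. The Olfr2+ samples spread more widely than the Olfr2- samples for most genes, as for Pecam1 (2.91 to 288 CPM), and only for Cldn5 do the groups not overlap.

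Among the secreted and surface glycoproteins, Vwf, the platelet-tethering protein of endothelial storage granules, had 0.363, 38.6 and 1.40 CPM in Olfr2+ samples 2, 3 and 4, against 6.82, 2.43 and 3.94 CPM in Olfr2- samples 1, 3 and 4. Olfr2+ sample 3 was far above and the other two Olfr2+ samples below all Olfr2- samples (log2 fold change 1.61, SE 1.59, adjusted p = 0.452). Here both repeats agreed: column 3A held 3645 counts and column 3B 3685 counts, the one marker high in both columns of that library name. Columns 3C and 3D of the same sample held 10 and 87.

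Egfl7, a secreted extracellular matrix protein that guides vessel formation, had 0.0340, 9.14 and 1.04 CPM in Olfr2+ samples 2, 3 and 4, against 0.949, 2.28 and 0.784 CPM in Olfr2- samples 1, 3 and 4. Olfr2+ sample 3 was highest and Olfr2+ sample 2 lowest of all 6 (log2 fold change 1.35, SE 1.60, adjusted p = 0.535). Column 3B held 1712 of the 1757 counts of Olfr2+ sample 3, and without it the log2 fold change was -1.56. The Egfl7 exons overlap those of Gm20532 on the same strand, a gene with 0 counts. They also overlap those of Agpat2 on the other strand, and this preparation does not mark strand. Whether reads shared with either gene were left out of the Egfl7 count was not tested. Agpat2, an enzyme of phospholipid synthesis, was at 109.5, 54.3 and 56.7 CPM in Olfr2+ columns 2A, 3A and 3C, where Egfl7 had 5, 4 and 2 counts, and at 2.12 CPM in column 3B, so the levels of the pair did not run together in those columns.

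Emcn, endomucin, a sialomucin of capillary and venous endothelium, had 0.113, 15.4 and 0.580 CPM in Olfr2+ samples 2, 3 and 4, against 0.613, 0.352 and 1.58 CPM in Olfr2- samples 1, 3 and 4. Olfr2+ sample 3 stood above all others and Olfr2+ sample 2 below all others (log2 fold change 2.66, SE 1.71, adjusted p = 0.254). Column 3C held 2936 of the 2963 Emcn counts of that sample, and column 3D, its repeat, held 22. Leaving out column 3B did not lower this value (log2 fold change 3.01), since Emcn had 3 counts there.

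The markers differed in which column carried them. The highest single column supplied 95.2% of the summed CPM over the 10 Olfr2+ columns for Emcn, 87.7% for Egfl7, 87.4% for Pecam1, 78.0% for Kdr, 54.8% for Tek and 51.4% for Esam. For the other 4 the share was 32.8% (Cdh5) to 49.6% (Vwf). Of the 7 markers with a mean of at least 1 CPM, 6 had over 50% of their Olfr2+ signal in 1 column, as had 35.9% of the 14558 genes at that level. Cdh5, Cldn5 and Tie1 were below that level. The median share of the 7 was 78.0% against 41.5% for those genes. In the 5 Olfr2- columns it was 45.3% for the 7 markers and 46.6% for those genes.

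Repeats that carry the same library name could be compared directly. All genes here are those with a mean of at least 1 CPM and a count in both repeats, a mean the markers were not held to. Between Olfr2+ columns 3A and 3B the 8 markers counted in both differed by a median of 107-fold, while the median over all genes was 3.98-fold. No marker lay near that median: Vwf, Emcn, Tek and Kdr differed by 1.12- to 6.32-fold. Tie1, Esam, Pecam1 and Egfl7 differed by 208- to 474-fold, with the maximum for Egfl7. Between Olfr2+ columns 3C and 3D the median over 7 markers was 19.5-fold, against 7.92-fold over all genes. Olfr2- columns 3A and 3B differed by a median of 10.98-fold over the markers, against 3.99-fold over all genes, with a maximum of 366-fold for Esam. Other repeats had lower medians for the markers counted in both than for all genes. These were 3.58-fold (4 markers) against 6.68-fold for Olfr2+ 2A and 2B and 4.04-fold (6 markers) against 5.64-fold for 2C and 2D. They were 2.697-fold (8 markers) against 2.916-fold for 4A and 4B, and 1.59-fold (10 markers) against 2.61-fold for Olfr2- 4A and 4B. Genes at 0 in a repeat have no ratio and were left out, so the first 2 medians do not show that all 10 markers agreed. These spreads between repeats of 1 sample exceeded the fold changes between the sorts for several markers, Pecam1 and Egfl7 among them.

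Within the columns below 60 M, Olfr2+ samples 3 and 4 (columns 3D, 4A and 4B) were set against the 3 Olfr2- samples, and edgeR called 0 of 29989 genes in either direction (0% higher and 0% lower), with 3127 genes and 0 markers at an unadjusted p under 0.05. Of the 10 log2 fold changes, 9 were below 0 and only Tek was above it, at 2.75 (SE 1.45, adjusted p = 0.508). The values ran from -0.17 for Tie1 to -1.70 for Esam (SE 0.99), with Kdr at -1.23, Vwf at -0.97, Cdh5 at -0.87, Pecam1 at -0.77, Cldn5 at -0.60, Emcn at -0.34 and Egfl7 at -0.18. The median of the markers was -0.69, near that of all genes at -0.43, and this fit recovered almost no planted change in simulated data. Most of the values were within about 1 SE of 0. Thus Pecam1, Kdr, Vwf, Egfl7 and Emcn had opposite signs over all columns and over the shallow columns, with no test passed in either.

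**Figure D3:**
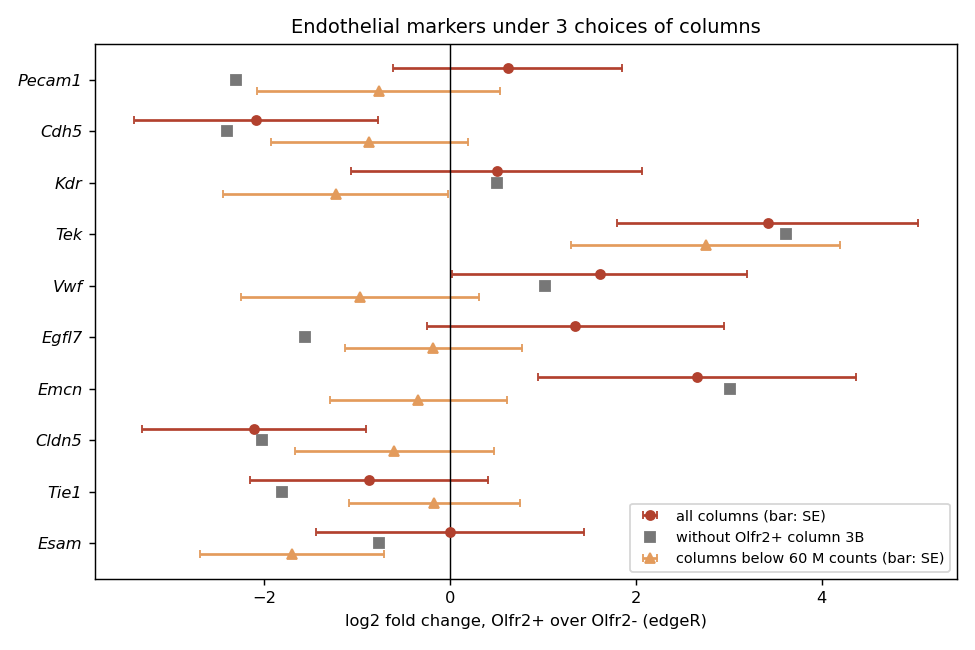
Log2 fold change of each endothelial marker, Olfr2+ over Olfr2-, from edgeR over all columns (circles), without Olfr2+ column 3B (squares) and in columns below 60 M counts (triangles), where bars are 1 SE. Tek is above 0 in each choice of columns, Cldn5, Cdh5 and Tie1 are below 0 in each, and Pecam1 and Egfl7 change sign when column 3B is left out.

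Per kb of exon the markers could be ranked among themselves. The median over the 15 columns was 3.00 CPM per kb for Pecam1, 0.377 for Tek, 0.243 for Egfl7, 0.183 for Kdr, 0.140 for Esam, 0.110 for Vwf, 0.0787 for Emcn, 0.0613 for Cldn5, 0.0419 for Tie1 and 0.0313 for Cdh5. Neighbours in this order had overlapping ranges over the columns, Pecam1 and Tek included. To judge such low levels they were set beside 1049 olfactory receptor genes other than Olfr2, a family that is mostly silent outside the nose. The 95th percentile of this family was 0 to 0.0240 CPM per kb in the deep Olfr2+ columns, 0.0704 to 0.157 in the shallow ones and 0.0504 to 0.490 in Olfr2-. It was 0 in Olfr2+ columns 2D and 3C, so any count exceeded it there. Examples are 4 counts of Cdh5, 8 of Tek and 4 of Vwf in column 2D, and 10 of Vwf in column 3C. Between 4.385 and 33.2% of the family had a count in the deep Olfr2+ columns, 24.4 to 47.3% in the shallow ones and 26.9 to 66.4% in the Olfr2- columns.

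Pecam1 exceeded the olfactory 95th percentile in all 7 deep Olfr2+ columns, all 3 shallow ones and all 5 Olfr2- columns. Tek did so in 7 of 7, 3 of 3 and 3 of 5 columns in the same order, and Vwf in 5 of 7, 2 of 3 and 4 of 5. Cdh5 exceeded it in 2 of 7, 1 of 3 and 1 of 5 columns. Cldn5 exceeded it in 2 of 7 deep and 2 of 3 shallow Olfr2+ columns and in 3 of 5 Olfr2- columns, and Tie1 in 3 of 7, 2 of 3 and 2 of 5. In the remaining columns the transcripts of VE-cadherin, claudin-5 and TIE1 did not exceed the upper range of the olfactory receptor family. Whether that family is silent in these cells was not tested. The higher background of the Olfr2- columns moved with the higher Cldn5 and Cdh5 values of those columns, and its part in them was not tested.

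**Figure D4:**
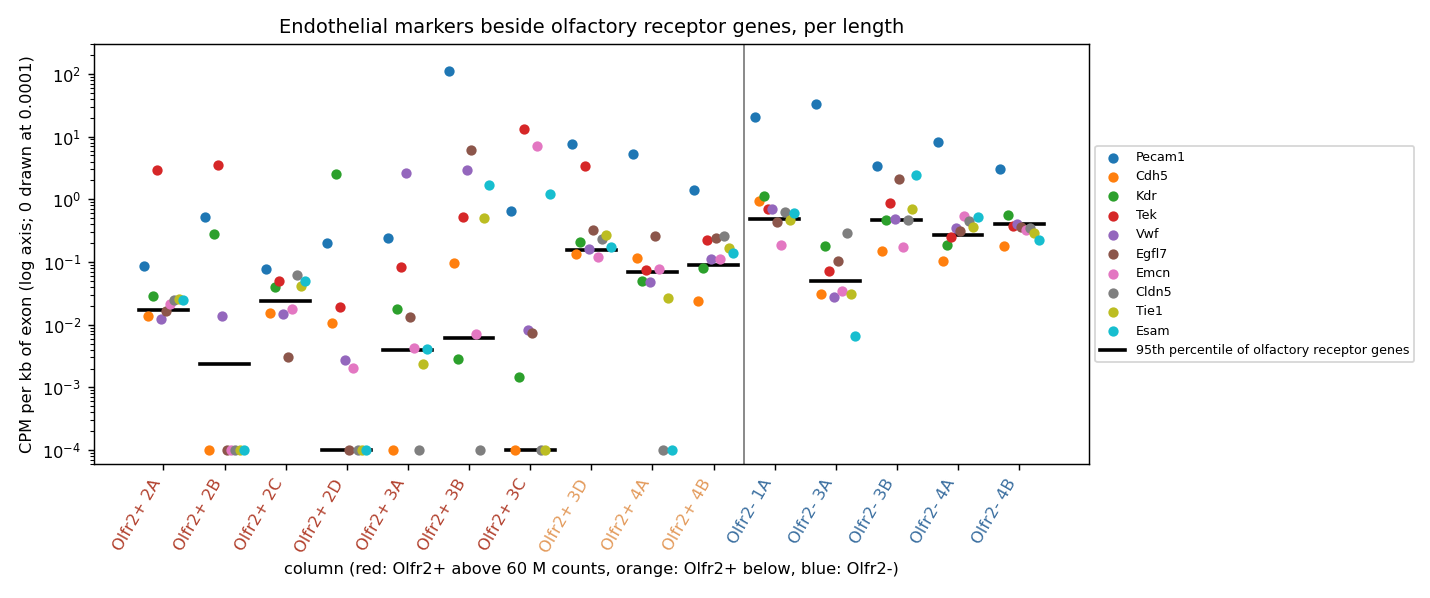
Endothelial markers (coloured points) as CPM per kb of exon on a log axis in each column (Olfr2+ left, Olfr2- right; a value of 0 is drawn at 0.0001), with the 95th percentile of 1049 olfactory receptor genes as a black bar. The bar sits at 0 to 0.0240 in the deep Olfr2+ columns and at 0.0504 to 0.490 in the Olfr2- columns, and Pecam1 is above it in every column.

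Olfr2+ column 3B was the one column in which many endothelial genes were at their highest. Of the 10 markers, 3 peaked there (Pecam1, Vwf and Egfl7), as did 13 of 63 genes in 7 further lists of endothelial genes (20.6%), against 8.51% of the genes with a mean of at least 1 CPM. Those named next were picked after their values were seen. Ptprb, a phosphatase that acts on TIE2 and VE-cadherin, was at 117 CPM against at most 10.8 CPM in any other column, and Icam2, an endothelial adhesion molecule, at 158 against 33.5 CPM. Mmrn2, a matrix protein of vessels, was at 62.1 against 5.94 CPM, Sox18, a vascular transcription factor, at 15.8 against 3.02 CPM, and Nos3, the endothelial nitric oxide synthase, at 8.32 against 2.86 CPM. The arterial genes Efnb2 and Gja4 reached 104.9 and 75.0 CPM, against at most 44.2 and 34.6 CPM elsewhere. Other endothelial genes were at or near 0 in the same column: Cldn5 and Robo4 had no count, and Kdr (0.0259 CPM), Emcn (0.0388 CPM) and Erg (0.104 CPM) were lower there than their median elsewhere. Thus the genes that peaked in column 3B did not include all defining endothelial genes. Olfr2- column 3B held peaks of Tie1 and Esam and of 9 of the 63 further genes (14.3%), against 5.66% of the genes with a mean of at least 1 CPM. The levels were much lower (3.46 CPM for Tie1 and 6.88 CPM for Esam). The markers and the 63 genes were not held to that mean, and Tie1 was below it, so these shares are not like for like. The olfactory 95th percentile of Olfr2- column 3B was 0.474 CPM per kb, and the part of this background in its peaks was not tested.

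**Figure D5:**
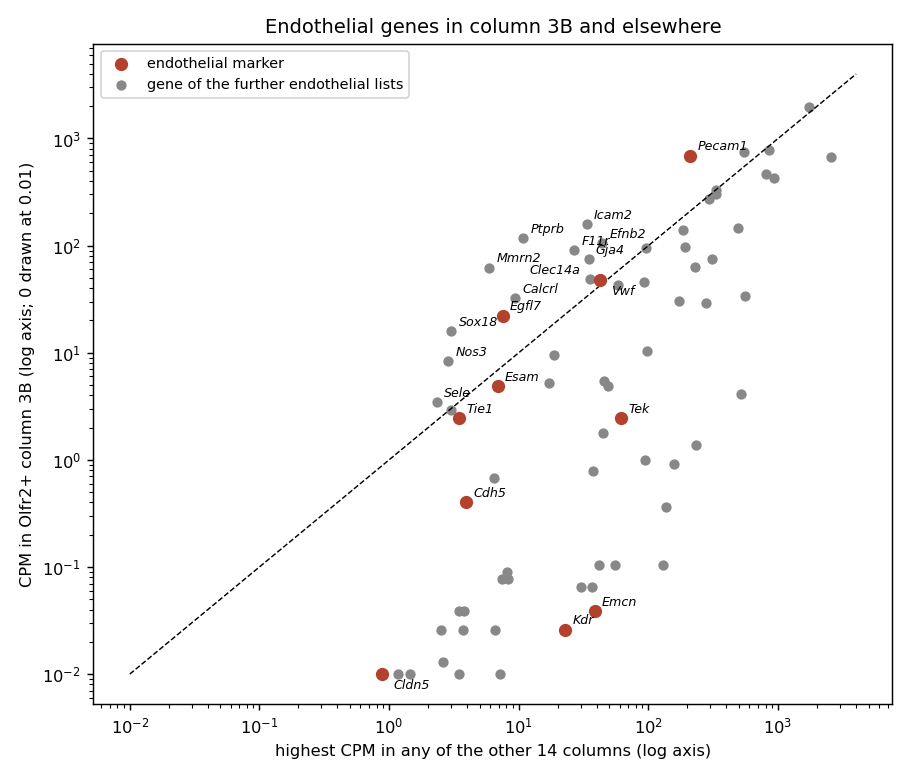
CPM in Olfr2+ column 3B (vertical) against the highest CPM in any of the other 14 columns (horizontal), both on log axes, for the endothelial markers (red) and the genes of the further endothelial lists (grey), with the line of equal values. Pecam1, Egfl7 and Vwf lie above the line with Ptprb, Icam2, Mmrn2 and Sox18, while Kdr, Emcn and Cldn5 lie far below it.

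Markers of 1 cell type measured on columns of few cells can be compared by how they vary together. Over the 15 columns, on log2 CPM centred within each depth set, the 45 pairs of markers had a median correlation of 0.34, from -0.20 for Kdr with Emcn to 0.84 for Egfl7 with Tie1, and 10 pairs exceeded 0.5. Without Olfr2+ column 3B the median was 0.24, from -0.30 for Pecam1 with Egfl7 to 0.78 for Cldn5 with Tie1, and again 10 pairs exceeded 0.5. These correlations are descriptions over columns that share samples, pool and depth. The genes most like the summed markers over the same columns, of 8745 with a mean of at least 10 CPM, were Tubgcp3 and Slc1a5 (r = 0.836 each), Atxn1 (0.825), Cog8 (0.806) and Pdxk (0.805). None of these is an endothelial marker, but the 10 markers themselves were left out of this search. Endothelial genes of low level, such as Sox18, Nos3 and Mmrn2, did not reach the 10 CPM mean. Pecam1 supplied 89.6% of the summed markers in Olfr2+ column 3B, so the sum there mostly followed Pecam1. Slc1a5 (422 CPM), Atxn1 (118 CPM), Cog8 (167 CPM) and Pdxk (248 CPM) were, like the sum, at their highest in column 3B.

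The further endothelial lists were tested in the same fit, and 3 of the 63 genes rose in Olfr2+ samples, with 0 called lower, beside 1.12% and 0.46% of all genes. Gpihbp1 did not pass the expression filter and was not tested. Eng, the endoglin co-receptor for BMP9 that fibroblasts and macrophages also carry, was 1 of 16 surface genes tested to pass. It had 418, 148 and 132 CPM in Olfr2+ samples 2, 3 and 4, against 5.89, 3.55 and 4.02 CPM in Olfr2- samples 1, 3 and 4 (log2 fold change 5.69, SE 1.22, adjusted p = 0.0295). The level of Olfr2+ sample 4 came from column 4B, at 256.0 unscaled CPM, whereas column 4A held 2.715 CPM. Vegfd, a lymphatic growth factor, was the only one of 7 VEGF and angiopoietin ligands to pass, at 325 ± 332 CPM in Olfr2+ samples and 6.41 ± 3.86 CPM in Olfr2- samples (SD, n = 3 each; edgeR adjusted p = 0.0312). Icam1, the leukocyte-binding adhesion molecule that macrophages also express, was the only one of 4 activation genes to pass, at 638 ± 501 CPM in Olfr2+ samples and 23.3 ± 19.1 CPM in Olfr2- samples (edgeR adjusted p = 0.0370). In columns below 60 M, where almost no change could be called, the log2 fold changes of Eng, Vegfd and Icam1 were 4.04, 3.14 and 2.32 (adjusted p = 0.443, 0.496 and 0.523). For Eng and Vegfd these rested on column 4B, at 256.0 and 199.5 CPM. Columns 3D and 4A held 3.545 and 2.715 CPM of Eng, against 3.927 to 9.777 CPM in Olfr2- columns. They held 3.84 and 5.217 CPM of Vegfd, against 4.199 to 15.14 CPM. Icam1 was at 63.28, 210.1 and 45.31 CPM in columns 3D, 4A and 4B, against 17.32 to 82.77 CPM in Olfr2- columns. The summed fibroblast markers, given below, were also highest in the deep Olfr2+ columns, and their part in these 3 calls was not tested. No gene passed among 10 transcription factors, 8 secreted factors and enzymes, 9 junction partners and 8 arterial or venous genes. The ligands had the highest median log2 fold change of these lists, 4.80 over all columns and 1.81 below 60 M, while the surface genes had 1.85 and -0.94 and the junction partners 2.80 and -0.62, against 0.24 and -0.43 over all genes.

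The angiopoietins that bind the Tek product were in that ligand list and were measured at 8.04 ± 5.88 CPM (Angpt1) and 77.8 ± 92.4 CPM (Angpt2) in Olfr2+ samples, against 0.673 ± 0.307 CPM and 1.94 ± 0.43 CPM in Olfr2- samples (SD, n = 3 each). Neither passed (edgeR adjusted p = 0.139 and 0.0574), and in both the Olfr2+ samples were all above the Olfr2- samples, as in 13.5% of all genes. Their log2 fold changes were 3.58 and 5.32 over all columns and 0.68 and 2.15 below 60 M. Of the ligands of Kdr, Vegfc averaged 47.7 ± 34.1 CPM in Olfr2+ samples and 1.03 ± 0.57 CPM in Olfr2- samples, without overlap and with no call (log2 fold change 5.53, edgeR adjusted p = 0.0609; 2.48 below 60 M). Vegfa averaged 46.1 ± 52.1 CPM in Olfr2+ samples and 58.5 ± 84.1 CPM in Olfr2- samples, with no call (edgeR adjusted p = 0.850).

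Of the markers of other cells, only the fibroblast list was called throughout. All 8 fibroblast genes rose in Olfr2+ samples (1.12% of all genes did), with a median log2 fold change of 4.93. In columns below 60 M 0 of the 8 passed, and their median was 0.81. Their sum was 30287 to 39379 CPM in the deep Olfr2+ columns, 2161 to 5022 CPM in the shallow ones and 2161 to 3952 CPM in Olfr2-. Of 10 macrophage genes, 3 rose (C1qb, C1qc and Lyz2). No gene passed among the platelet (7 tested), pericyte (6), smooth muscle (8), lymphatic (4) and B cell (5) lists. Summed platelet genes were 4.22 to 117.6 CPM in the deep Olfr2+ columns, 3.40 to 31.8 CPM in the shallow ones and 6.18 to 37.3 CPM in the Olfr2- columns, and no platelet gene was at 0 in all columns. Pf4 alone supplied 117.1 CPM of the highest sum, that of column 2A, and was at 4.03 CPM in Olfr2+ column 3B. Lymphatic genes reached 3.03 to 693.7 CPM in Olfr2+ and 20.2 to 56.9 CPM in Olfr2-, with Ccl21a, a defining gene, at 0 in all 15. Pdpn, which fibroblasts also make, supplied 693.3 CPM of the highest sum, in Olfr2+ column 2C. The part of these cells in the endothelial values was not tested.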

How the data were processed

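The authors deposited raw counts, 1 whole number per gene and column, for 47729 features in 15 columns, with no normalization. Per the labels' protocols, libraries were made by Smart-Seq2, with 18 cycles of cDNA amplification and 9 library cycles, and without molecular identifiers, so intervals cover counting error only. Named in the submitters' processing notes, with no role for each, are the build GRCm39, DESeq2 1.34, DRAGEN and STAR 2.7.1. Neither an annotation release nor a strand setting is given in the sources used here. Exon lengths and overlaps came from GENCODE vM21 (GRCm38), which holds 99.1% of the gene identifiers compared without version.

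Reading title numbers as samples and letters as repeats is not stated in the labels. Columns were summed to 3 samples per sort and tested with edgeR 4.0.16 (R 4.3.3): quasi-likelihood F test after TMM scaling and filterByExpr, Benjamini-Hochberg adjustment over all genes, threshold 0.05. All 10 markers passed the filter. SE was taken from the F statistic. Nothing says that samples came from separate animals (the protocol calls them technical replicates), so a p-value here covers the spread between samples alone, which may be technical. DESeq2 1.42.0, other scalings and filters, omitted samples, and column subsets were alternatives. On simulated data with planted changes, the test over all columns recovered mainly the largest ones and missed most changes of the markers' size. The test in columns below 60 M recovered almost none, so a missing call does not show equal levels. The changes were planted in genes with a mean above 10 CPM, which most markers did not reach. Recovery at the markers' own levels was not tested.

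Levels are CPM, of the column total for columns and TMM-scaled for samples. Correlations used log2(CPM + 0.5). The named genes are the 10 markers, Olfr2, list genes that passed, and the 5 genes most correlated with the summed markers. Other genes (Agpat2 for its overlap with Egfl7, ligands of Tek and Kdr, genes high or low in column 3B, and Ccl21a, Pf4, Pdpn and Gpihbp1) were picked after their values were seen. The members, lists and depth division (60 M counts) were chosen with earlier results of these data known, and the omission of column 3B after seeing these values.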

Additional observations from a re-analysis of the deposited data

Results flagged for a closer look

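The 10 markers and their sum were checked for a column that stands apart, by the gap of the highest or lowest column to its neighbour as a share of the group's range, over 10 Olfr2+ and 5 Olfr2- columns. Of 22 such groups of columns, 9 held 1 column beyond Dixon's 95% limit (6 in Olfr2+ and 3 in Olfr2-), where chance gives about 1 in 20 for normally distributed values. These CPM values are skewed, and by the same measure 46.7% of the 14558 genes with a mean of at least 1 CPM had such a column in Olfr2+ and 31.2% in Olfr2-. Such columns are therefore common among genes in general. The 22 groups also include the sum and 3 markers below that level, so their count is not like for like. Of the 7 markers at that level, Pecam1, Egfl7, Tek, Emcn and Kdr were flagged in Olfr2+, and Egfl7 and Esam in Olfr2-. The columns of 1 sample are repeats and not independent checks. In Olfr2+ columns the lone high values were Pecam1 at 690.0 CPM and Egfl7 at 22.2 CPM, both in column 3B, together with the summed markers at 770.0 CPM in the same column. Tek at 61.8 CPM and Emcn at 38.6 CPM stood apart in Olfr2+ column 3C, and Kdr at 22.8 CPM in Olfr2+ column 2D. In Olfr2- columns the lone high values were Cdh5 at 3.94 CPM in column 1A, and Egfl7 at 7.51 CPM and Esam at 6.88 CPM in column 3B.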

How the results depend on the processing

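No alternative called a marker lower, and only DESeq2 called one higher (1, Tek, log2 fold change 3.60; 0 over all other alternatives). The median log2 fold change of the markers was 0.56. It was -0.74 with library totals and -1.32 with TMM over genes of at least 10 CPM, settings that put the median of all genes at -0.88 and -1.26. It was -0.69 in columns below 60 M, -0.80 with depth as a covariate, -1.16 without Olfr2+ column 3B (chosen after seeing the data) and -1.70 to 1.06 when 1 sample was left out (-1.70 without Olfr2+ sample 3).

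Single markers changed sign as follows. With library totals Pecam1 was -0.43 and Kdr -1.13. With TMM over genes of at least 10 CPM, Pecam1 was -1.04, Kdr -1.74, Vwf -0.24 and Egfl7 -0.16. In columns below 60 M, Pecam1 was -0.77, Kdr -1.23, Vwf -0.97, Egfl7 -0.18 and Emcn -0.34. With depth as a covariate these were -0.89, -1.39, -1.11, -0.26 and -0.43. Without Olfr2+ column 3B, Pecam1 was -2.30 and Egfl7 -1.56. When 1 sample was left out, Pecam1 ran from -2.17 to 1.24, Vwf from -2.20 to 2.23, Egfl7 from -1.24 to 2.15, Emcn from -1.23 to 3.44 and Esam from -2.96 to 0.65 (each lowest without Olfr2+ sample 3), and Kdr from -2.52 (without Olfr2+ sample 2) to 1.05. Esam was 0.09 with DESeq2, 0.01 with no filter and 0.32 per library name. Tek, Cldn5 and Tie1 kept their sign in every alternative run. Apart from the settings themselves, the cause was not tested.

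The sample number as a replicate block was fitted too, although the labels do not say that equal numbers are pairs. Deviations of same-numbered samples from their group means had correlations of 0.012 and -0.056 for numbers 3 and 4. With only these numbers shared between the sorts, the correlations cannot decide whether samples were paired. With this block 0 markers and 0 further endothelial genes were called, 2 genes were called higher and 0 lower over all genes, the median of the markers was 0.40, Kdr was -1.92 and Cdh5 0.03.

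Over all genes, 273 were called higher and 112 lower. The counts were 86 and 310 with library totals, 90 and 713 with TMM over genes of at least 10 CPM, 4016 and 2695 with DESeq2, 642 and 239 with no filter, 885 and 683 per library name, 0 and 0 in columns below 60 M or with depth as a covariate, 146 and 36 without column 3B, and 6 to 973 higher and 0 to 113 lower when 1 sample was left out (6 and 0 without Olfr2+ sample 2, 973 and 113 without Olfr2+ sample 4). Of the further endothelial genes, 3 were called higher and 0 lower, against 19 and 3 with DESeq2, 5 higher with no filter, 8 per library name, 0 below 60 M or with depth as a covariate, and 0 to 7 when 1 sample was left out.

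Low counts limit several markers, and Cdh5 and Cldn5 each had fewer than 10 counts in 8 of 15 columns, most of them among the deepest. In each column 3 counts correspond to 0.0314 to 0.100 CPM.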
